A study of Mus musculus with 8 samples.

Results

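The Ifi200 family is a cluster of interferon-inducible genes on distal chromosome 1 of the mouse, and its transcripts were described here in the liver of NZO and B6 mice. The genes named as members were Ifi202b, Ifi203, Ifi204, Ifi205, Mnda, Mndal and Aim2. Of these 7 genes, 6 (of 34836 gene or transcript names on the array) had a probe under their own name, with 11 probes of 55681 in all, and each probe was kept separate. No probe carried the name Ifi205. The family was selected because its signals were known to differ between the strains on these arrays, so that the strain differences at its own probes are given as a description without a test.

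RNA from the liver of 8 male mice was measured on 1-colour Agilent arrays, and each labelled mouse had an array of its own. The NZO group held 4 mice of the strain NZO/HiBomDife and the B6 group 4 mice labelled C57BL/6. Mice of both strains were 6 weeks old and received a high fat diet with 45% fat. The study compared an obese, diabetes-susceptible strain with a lean, diabetes-resistant one, and the strains differ across the whole genome.

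Proteins of the Ifi200 family carry HIN domains, which bind DNA, and most of them also carry a pyrin domain, through which they recruit other proteins. Aim2 senses DNA in the cytosol and assembles an inflammasome with the adaptor Pycard and the protease Casp1, whereas the p202 protein of Ifi202b has no pyrin domain and is known as an inhibitor of Aim2. The genes are induced by interferons and are best known from macrophages and lymphocytes, and Ifi202b has been studied as an obesity candidate gene in NZO mice. A defect at the 5′ end of Ifi202b is known for C57BL/6 mice, and the DNA of the present mice was not examined.

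All 11 probes had 60 bases, of which the middle 30 (bases 16 to 45) are printed 5′ to 3′. The first 3 sequences are shown because signal was found in a single strain there, and the other 4, all from Ifi203, because they gave different answers for the same gene. All lie on the minus strand of chromosome 1 in the mm9 coordinates of the files.
Ifi202b A_55_P2032167, chr1:175892789-175892848: acatacaacatccagctcttagttgtggga
Ifi202b A_51_P151182, chr1:175892953-175893982: agatgagtggtttctgagagctacgaggta
Mndal A_65_P17218, chr1:175787550-175787609: gtcaagcacaaaaaatgaagaagaaaataa
Ifi203 A_55_P1988202, chr1:175850536-175850595: atctgtactgacagtttgcatctaataaag
Ifi203 A_55_P2004507, chr1:175851818-175851877: cccatgtttgaatggtagagaagggtgaga
Ifi203 A_55_P1998843, chr1:175852372-175852430: tgtgcctttggcactatcctttaaccattt
Ifi203 A_55_P1966731, chr1:175854206-175854265: tgcatttgctatggaattggagatgataca
The second Ifi202b probe covered 1030 bases of the genome with 60 bases of sequence, so its target is split there. Probes of different member genes shared no run of more than 7 bases. The array's accession list for the Mnda probe named Ifi211 and Ifi205 of the RefSeq table, so signal of these 2 transcripts could not be told apart. Exon and intron annotation of mm9 was not used here.

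The family's promoters were read from RefSeq (assembly GRCm38.p6), from 250 bases before to 50 bases after each start. The letters GAAA, any 2 bases and again GAAA, which belong to the element bound by interferon-activated factors, were searched on both strands. Of 12 family genes of the cluster with a promoter in the table, 9 held a match, compared with 3.99% of all 27025 genes. Mndal, Ifi203, Ifi205 and Ifi211 (the RefSeq name of the gene listed as Mnda on the array) were among them, and Ifi202b and Aim2 had no match in this window. The stretches around the match are shown for these 4 genes, all on the minus strand, because they belong to members with a match (match in capitals).
Mndal, chr1:173880204-173880233: aagagctgggGAAATCGAAAgctatgaaca
Ifi203, chr1:173942508-173942537: aagagctgggGAAATCGAAAgctatgaaca
Ifi211, chr1:173913064-173913093: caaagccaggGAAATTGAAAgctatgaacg
Ifi205, chr1:174031870-174031899: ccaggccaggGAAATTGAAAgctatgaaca
The stretches of Mndal and Ifi203 were identical, and the bases after the match were nearly alike in all 4 and in several other genes of the cluster. The match shown ended 27 bases before the start in Mndal, 26 in Ifi203, 28 in Ifi211 and 125 in Ifi205, where it was 1 of 2 matches. Mndal and Ifi203 each have a further start in the table, with a match on the opposite strand for Mndal and none for Ifi203. Factor binding was not measured in these samples, and no match says only that the letters are not in this window.

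Each value below is the log2 processed signal of a probe minus the 75th percentile of its array, so that 0 stands for that percentile. The percentile had a median of 122 intensity units over the NZO arrays (range 119 to 142) and of 148 over the B6 arrays (range 136 to 159). The share of spots well above background had a median of 53.9% in NZO and 55.2% in B6, and saturation was seen at 0 spots. Levels of different probes are not read as amounts of different transcripts, because each probe binds with its own efficiency. The study reports SNPs between B6 and NZO, and whether any lie under these probes was not tested. The word level therefore stands for probe signal, and a strain difference in it is not by itself a difference in transcript amount. Brightness was used to choose a probe and to describe the summed marker signals. Values of the NZO arrays are listed in the order of mice 007, 003, 009 and 011, and those of the B6 arrays in the order of mice 011, 010, 015 and 009.

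Ifi202b, whose p202 protein binds DNA and restrains Aim2, was seen in NZO liver alone. At A_55_P2032167 the level was 1.29, 1.43, 1.21 and 1.36 in NZO mice and -4.58, -6.17, -6.01 and -6.33 in B6 mice. At A_51_P151182 it was 1.70, 1.96, 1.89 and 1.77 in NZO mice and -6.77, -6.39, -6.25 and -6.59 in B6 mice. At both probes all 4 NZO arrays were well above background and 0 of 4 B6 arrays were, and the strains lay far apart. The differences of the measured means were 7.10 and 8.33 on the log2 scale. The B6 side was not well above background, so the folds are approximate bounds. They were computed against the lowest level found above background on each B6 array. A signal can lie above that lowest level without being well above background, so these bounds are not strict. On that basis the level was at least 47.9-fold higher in NZO at the former probe and at least 68.1-fold higher at the latter. Every later fold given as at least is read in the same way. In whole liver RNA, fewer cells of a type and less RNA per cell cannot be told apart.

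Mndal, a family member that carries both a pyrin and a HIN domain, showed the opposite pattern. Its level was -4.33, -5.40, -4.69 and -4.95 in NZO mice and 0.63, 0.97, 0.92 and 0.47 in B6 mice. The signal was well above background on 4 of 4 B6 arrays and 0 of 4 NZO arrays. The difference of the means was -5.59 on the log2 scale, and by the same approximate bound the level was at least 28.0-fold higher in B6.

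The Mnda probe, which also stands for Ifi205, was lower in NZO but was measured in both strains. Its level was -3.07, -3.35, -3.57 and -2.98 in NZO mice and -0.07, 0.02, 0.57 and -0.22 in B6 mice. All 8 arrays were well above background, and the strains did not overlap. The means were -3.24 ± 0.27 in NZO and 0.08 ± 0.35 in B6 (SD, 4 mice each), a 9.99-fold higher level in B6.

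Ifi203, another HIN domain protein induced by interferon, was covered by 4 probes, and these did not move together. At A_55_P1988202, the probe farthest from the Ifi202b probes, the level was -1.94, -3.49, -1.70 and -2.45 in NZO mice and 2.14, 2.17, 2.10 and 1.79 in B6 mice. The strains were separated by 3.49 log2 units there and the B6 mean was 21.8-fold higher, while NZO mouse 003 was lower than the other NZO mice. At A_55_P2004507 the level was -6.29, -6.08, -5.88 and -6.10 in NZO mice, where 0 of 4 arrays were well above background, and -3.30, -2.30, -3.54 and -3.11 in B6 mice, where 4 of 4 were. The level at this probe was at least 2.0-fold higher in B6, a small bound because the B6 signal itself was dim.

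The other 2 Ifi203 probes lay in the opposite order or overlapped. At A_55_P1998843 the level was -3.04, -2.86, -2.57 and -3.18 in NZO mice and -3.31, -3.24, -3.57 and -4.63 in B6 mice. All NZO values were above all B6 values, by a gap of only 0.06, and 2 of 4 B6 arrays were well above background. At A_55_P1966731 the level was -0.40, -0.26, -0.09 and -0.38 in NZO mice and -0.40, -0.27, -0.36 and -0.96 in B6 mice. The strains overlapped there, with means of -0.28 ± 0.14 and -0.50 ± 0.31 (SD, 4 mice each), although all 8 arrays were well above background. The differences thus ran from -4.45 to 0.78 among the 4 probes, which lie within the same stretch of chromosome 1 and carry the same gene name.

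Ifi204, the relative of human IFI16 and like it a regulator of cell growth and of interferon responses, was lower in NZO at both of its probes. At A_55_P2066578 the level was -0.68, -0.61, -0.49 and -0.58 in NZO mice and 1.00, 1.05, 1.04 and 0.93 in B6 mice. At A_55_P1975560 it was 1.53, 1.40, 1.49 and 1.58 in NZO mice and 2.91, 3.06, 3.04 and 2.75 in B6 mice. The strains were apart at both probes, with all 8 arrays well above background and little spread within a strain. The B6 level was 3.02-fold higher at the former and 2.71-fold higher at the latter probe.

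Aim2, the DNA sensor, was near the background. Its level was -3.79, -4.39, -3.66 and -4.09 in NZO mice and -3.94, -4.96, -5.18 and -5.33 in B6 mice. The signal was well above background on 1 NZO array and 1 B6 array, and the strains overlapped. Aim2 was the member probe left out by the filter on dim probes, and its level cannot be compared between the strains at this signal.

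**Figure D1:**
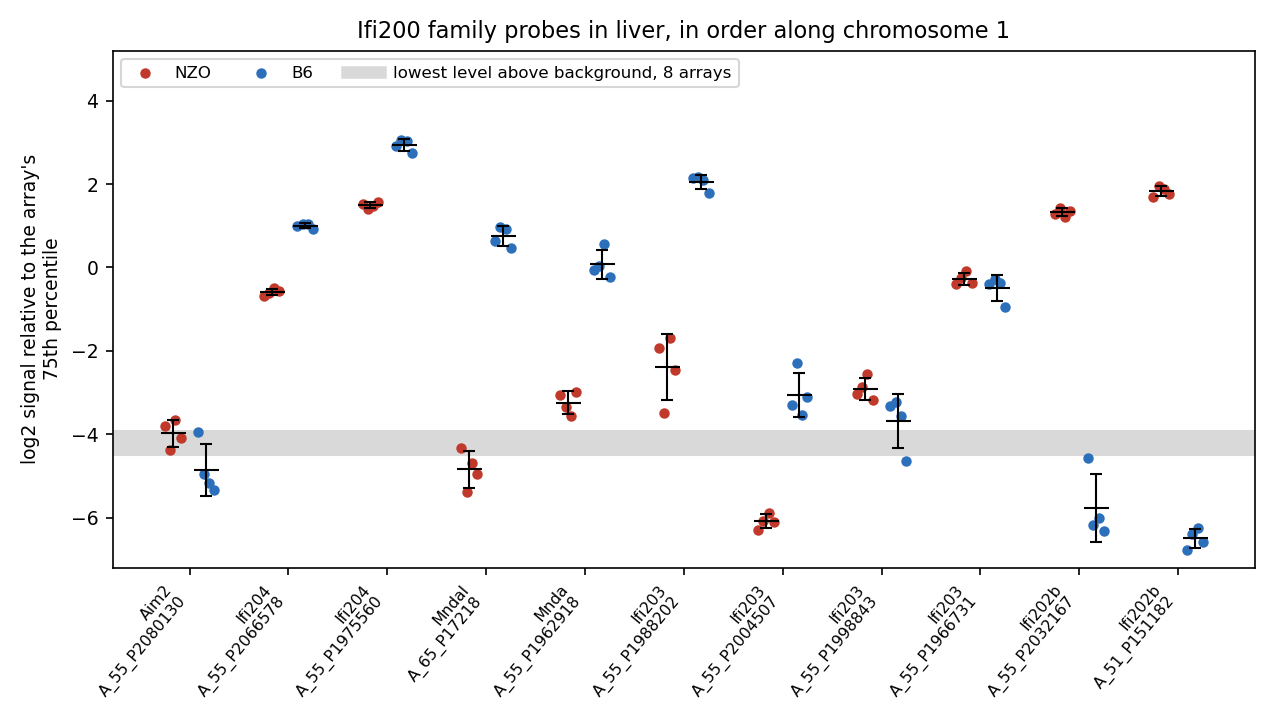
Log2 signal relative to the 75th percentile of the array (vertical axis) at the 11 member probes, ordered along chromosome 1, in 4 NZO (red) and 4 B6 (blue) mice, 1 point per mouse, with the mean and SD in black; the grey band spans the lowest level found above background on the 8 arrays. The B6 points lie far below the NZO points at both Ifi202b probes and far above them at Mndal, and the 4 Ifi203 probes differ from each other.

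Over the family, all NZO mice lay above all B6 mice at 3 probes (both of Ifi202b and Ifi203 A_55_P1998843), all B6 mice lay above all NZO mice at 6 probes, and the strains overlapped at 2. Among all tested probes the former pattern was found in 11.3% and the latter in 10.7%, and nothing is read from this contrast because the family was chosen on it. Of the 11 probes, 10 passed the filter on dim probes, and 5 were well above background on all 8 arrays. Batches known from the files were 5 slides and 2 scan days. A single slide held both strains (1 NZO and 2 B6 arrays), and each day did (3 NZO and 2 B6 arrays on the first, 1 NZO and 2 B6 arrays on the second). Leaving aside the probes at which the strains overlapped, the sign of the difference was the same within that slide and within each day, although the slide and the second day hold 1 NZO array each. The difference ranged from 6.75 to 7.52 at Ifi202b A_55_P2032167, from 8.19 to 8.38 at Ifi202b A_51_P151182 and from -6.34 to -4.88 at Mndal.

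The size of the differences depended on the treatment of background. With normexp background correction the Ifi202b differences were 2.75 and 3.44, that of Mndal was -2.16 and that of Mnda -1.50. On the deposited table, which still contains background, they were 3.57, 4.44, -3.22 and -2.26. For the Ifi203 probes, A_55_P1988202 gave -2.79 and -3.56 in place of -4.45, and the dim A_55_P2004507 gave -0.24 and -0.75 in place of -3.02. At the Ifi202b probes, Mndal and A_55_P2004507, both settings gave folds below the bounds stated above.

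The family's chromosomal neighbourhood was then examined, where probes other than the member probes were tested. Limma compared the strains over all 27623 tested probes, and a probe was called at a Benjamini-Hochberg adjusted p of at most 0.05 and a log2 fold change of at least 0.7 in either direction. Of all tested probes, 4.33% were called higher and 5.28% lower in NZO. Within 1 Mb of the outermost member probes there were 92 other probes with 57 names, and 48 of them were tested. Of these, 4 were called higher (8.33%) and 25 lower (52.1%), with a median difference of -0.79 compared with 0.01 over all tested probes. At 10 of the 25 lower probes, background was not exceeded on all 8 arrays, so that these passed the filter through B6 alone. Over the 36 neighbours well above background on all 8 arrays, 4 were called higher and 15 lower (41.7%) with a median difference of -0.49, compared with 3.87% higher and 3.86% lower among all such probes.

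Part of these neighbours are family genes under older names. Because the family was chosen on this contrast, their calls are read as description. Of 13 such probes from 6 genes, 10 were tested, 1 was called higher and 7 were called lower. Pydc3 (RefSeq symbol Ifi208) was lower in NZO at 3 probes, and the clearest of them was A_55_P2181222 with -3.00, -2.73, -2.68 and -2.84 in NZO mice and 0.31, 0.48, 0.56 and 0.14 in B6 mice (log2 fold change -3.18, SE 0.13, limma adjusted p = 2.59e-06). Its neighbour A_55_P2001233 gave the opposite, with 2.95, 3.15, 3.41 and 3.02 in NZO mice and 1.60, 1.63, 1.81 and 1.54 in B6 mice (log2 fold change 1.49, SE 0.13, limma adjusted p = 0.000135). The strains did not overlap at either probe, although the targets were next to each other (chr1:175628376-175628435 and chr1:175628440-175628499, mm9, plus strand). Disagreement between probes of the same gene was thus also present outside the members.

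Pydc4 (Ifi213) was called lower at 1 probe (log2 fold change -3.24, SE 0.43), where 0 of 4 NZO arrays were well above background and the level was at least 3.91-fold higher in B6. Pyhin1 (Ifi209) was called lower at 2 probes, with log2 fold changes of -1.11 (SE 0.15) and -1.16 (SE 0.26). The call at the latter, A_55_P1974178, was lost without NZO mouse 011 (limma adjusted p = 0.0530), B6 mouse 010 (0.0609) or B6 mouse 015 (0.0560). AI607873 (Ifi207) was called lower at 1 of 2 probes (-0.81). The remaining 2 genes were Gm16340 (Ifi203-ps), which was not called at -0.58, and BC094916 (Ifi214), whose signal was at background. Probes named only by coordinates within this stretch numbered 26, and of 16 tested 11 were called, all of them lower in NZO (median difference -1.27). The named coordinates span the AI607873 and Gm16340 probes, so these probes are not read as transcripts between genes. Many of them share sequence with each other or with AI607873, up to 42 bases in a pair, and the called A_30_P01024163 shares 18 bases with an Ifi204 probe, so they are not separate measurements.

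Among the other neighbours, 3 tested probes were called higher and 7 lower out of 22, with a median difference of -0.06. Apcs, the acute phase protein serum amyloid P, was higher in NZO (5.58, 5.36, 5.80 and 5.04 against 3.58, 3.55, 4.54 and 3.27 in B6), with a log2 fold change of 1.71 (SE 0.29, limma adjusted p = 0.00488). Its related neighbour Crp, the C-reactive protein gene, differed by -0.09 and was not called. Darc (Ackr1), a chemokine receptor of red blood cells and vessels, rose by 1.17 (SE 0.19). Fmn2, which nucleates actin, rose by 2.46 (SE 0.24) at 1 of its 2 probes, and the other probe, at 0.57, did not reach the threshold.

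Dusp23, a protein phosphatase, was lower in NZO (log2 fold change -2.52, SE 0.12), and Tagln2, an actin-binding protein, was lower at both of its probes (-2.30 and -0.78). Slamf8, a receptor of macrophages, was called lower as well, with 1 of 4 NZO arrays well above background (-2.32, SE 0.30, and -0.38 with normexp). Igsf9, a cell adhesion protein, was lower at a dim probe (-2.90, at least 4.68-fold), where 0 of 4 NZO arrays were well above background, while its bright probe gave 0.17 and was not called. A transcript named TC1691508 in the files, just beyond the Aim2 probe and on the opposite strand, was lower at both of its probes (-4.19 and -4.03), where NZO was not well above background and B6 was at least 5.65-fold and 13.1-fold higher. It was not matched to a gene. With normexp background correction 11 neighbouring probes were called lower, and the calls of Pydc4, Pyhin1, Igsf9, Slamf8, AI607873, 2 Pydc3 probes, 1 Tagln2 probe and 1 TC1691508 probe were lost. Calls of some of the probes named only by coordinates were lost as well. With a fixed slide term 18 neighbouring probes were called lower, and among the higher ones the calls of Apcs and of the Pydc3 probe were lost.

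**Figure D2:**
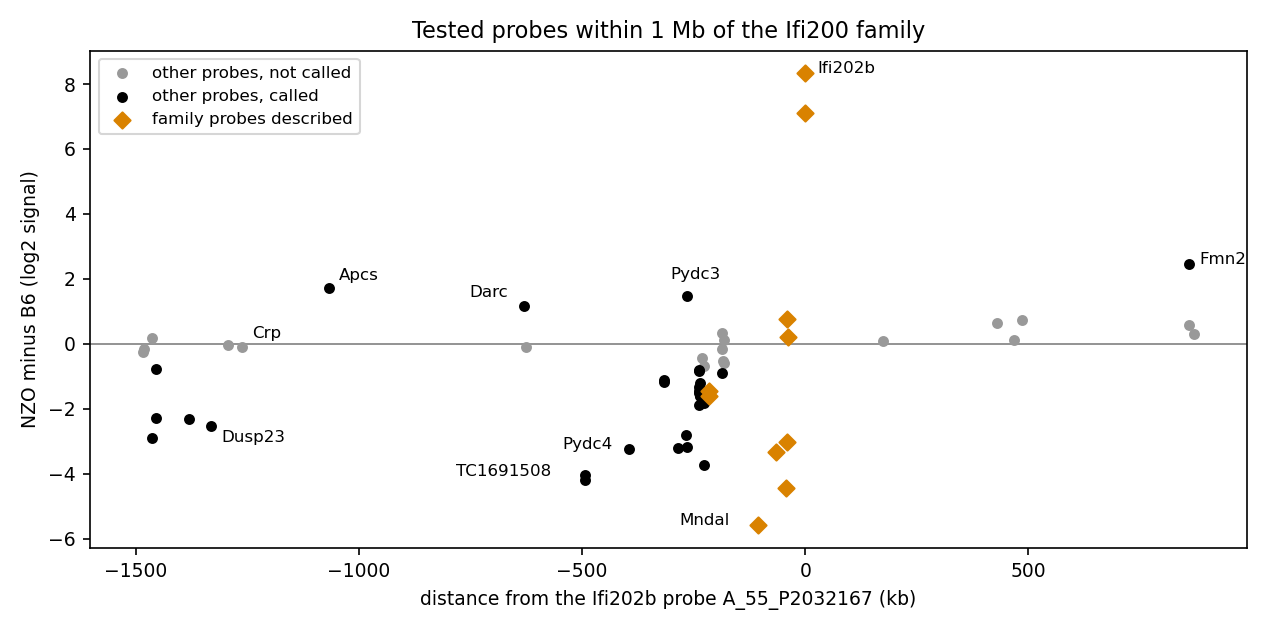
Difference between strain means (NZO minus B6, log2 signal, vertical axis) of the 58 tested probes within 1 Mb of the family against the distance in kb from the Ifi202b probe A_55_P2032167 (horizontal axis), for member probes (diamonds) and other probes (black when called, grey when not). Most called neighbours lie below 0, while Apcs, Darc, Fmn2 and 1 Pydc3 probe lie above it.

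Genes of the pathways around the family were taken from 4 lists, each gene by its brightest probe. Over all 20099 names tested in this way, 4.4% were called higher and 4.97% lower in NZO. Of 18 genes of the inflammasome and of cytosolic nucleic acid sensing, 16 were tested and 1 was called, lower in NZO (median difference -0.14). This was Il1b, the cytokine that inflammasomes mature, with -2.73, -2.71, -2.72 and -3.31 in NZO mice and -2.23, -0.74, -1.48 and -2.12 in B6 mice (log2 fold change -1.23, SE 0.33, limma adjusted p = 0.0414). The strains did not overlap, but the call was lost when any single NZO mouse or B6 mouse 015 was left out, with adjusted p between 0.0681 and 0.0993. With normexp the difference was -0.33, and the call was also lost with quantile normalization, no filter, a fixed slide term, the mouse number as a block or the methods' test. Pycard and Casp1, the partners of Aim2, differed by -0.23 and -0.30 and were not called. Casp4 of the same list was lower in NZO without overlap (limma adjusted p = 0.00482). Its log2 fold change of -0.59 (-0.58 at its other probe) did not reach the threshold, so it was not called either.

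Of 16 interferon receptors and signal transducers, all tested, 1 was called, again lower in NZO (median -0.08). This was Irf8, a transcription factor of macrophages and dendritic cells, with 0.83, 0.73, 0.56 and 0.71 in NZO mice and 1.54, 1.17, 1.74 and 1.38 in B6 mice. Its log2 fold change was -0.75 (SE 0.14, limma adjusted p = 0.00761) and fell below the threshold of 0.7 without B6 mouse 015 (-0.66) and with normexp, and the call was also lost with a fixed slide term or the mouse number as a block.

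Interferon-induced genes outside the family gave a different picture. Of 27 listed genes 26 were tested, 8 were called higher in NZO and 1 was called lower, and their median difference was 0.37 compared with 0.01 over all tested probes. Mx1, an antiviral GTPase, was 2.15, 2.09, 1.996 and 2.13 in NZO mice and -0.53, -0.48, 0.09 and -0.91 in B6 mice (log2 fold change 2.55, SE 0.19, limma adjusted p = 7.86e-05). Ifit1, which binds viral RNA, rose by 1.96 (SE 0.20), and Eif2ak2, the kinase PKR, rose by 1.29 (SE 0.09). Rsad2 rose from a mean of 1.68 in B6 to 2.77 in NZO, Isg15 by 1.00 and Oas1a by 0.90. The strains did not overlap at any of these 6 genes. The calls of Rsad2, Isg15 and Oas1a were lost with a fixed slide term. With the mouse number as a block, the calls of Rsad2, Isg15, Oas1a, Ifit1 and Eif2ak2 were lost, and only that of Mx1 remained. The calls of Rsad2 and Isg15 were also lost with the methods' test, and that of Oas1a on the deposited values.

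Mx2, the paralogue of Mx1, moved in the other direction. It was -5.10, -5.43, -3.68 and -4.66 in NZO mice, where 1 of 4 arrays was well above background, and 1.20, 1.45, 1.55 and 1.07 in B6 mice (log2 fold change -6.03, SE 0.35, limma adjusted p = 1.69e-05). It thus passed the filter on dim probes through B6 alone, where it was high, and over probes well above background on all 8 arrays 0 genes of the list were called lower. Its size depends on the background in NZO, and it was -2.49 with normexp. A fit with a fixed slide term called 3 of the list's genes higher, and 5 were called higher on the deposited values. Interferon itself was not among the genes examined.

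Known binding partners and targets of p202 and p204 were the last list. Of 17 genes 15 were tested, and limma called 0 higher and 0 lower (median 0.04). At an unadjusted limma p below 0.05 there were 3, namely Id1, Cdkn1a and Hsd11b1, and the methods' test with unequal variances called 0 after adjustment. Id1 was lower in NZO (log2 fold change -1.73, limma adjusted p = 0.0513) and Cdkn1a higher (1.12, limma adjusted p = 0.112). The strains overlapped at both. Hsd11b1, which regenerates active glucocorticoid and has been linked to Ifi202b, was 7.35, 7.57, 7.54 and 7.41 in NZO mice and 7.22, 7.16, 7.20 and 7.22 in B6 mice. All NZO values were above all B6 values, but the difference of 0.26 (SE 0.09) was small and not called (limma adjusted p = 0.0944).

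**Figure D3:**
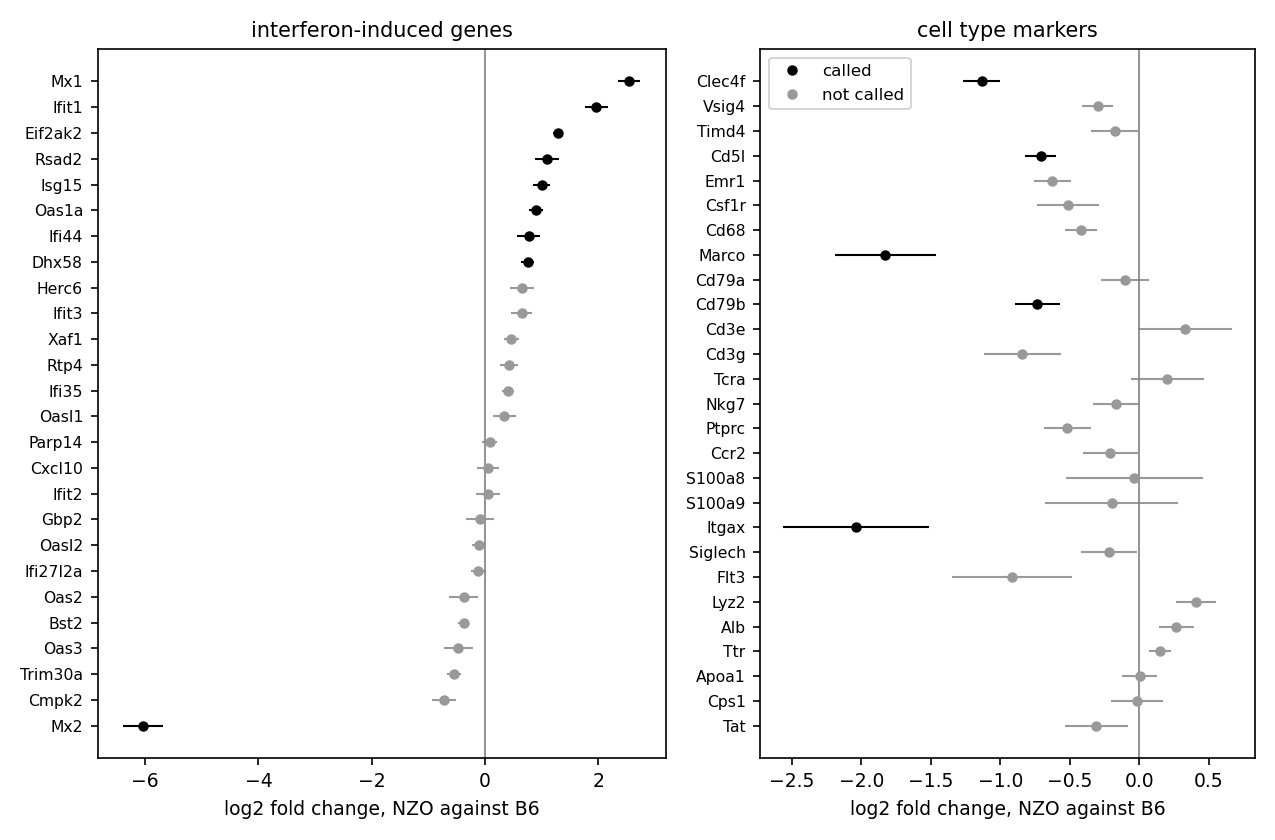
Log2 fold change between NZO and B6 (horizontal axis, limma estimate with SE) for the 26 tested interferon-induced genes (left) and the 27 tested cell type markers (right), black when called and grey when not. Of the induced genes 8 lie to the right of 0 in black and only Mx2 to the left, and all 5 called markers lie to the left.

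Markers of the cells in which the family is best known were examined beside these results. Of 8 macrophage and Kupffer cell markers, all tested, 3 were called, each of them lower in NZO. The log2 fold change was -1.83 (SE 0.36) for Marco, a scavenger receptor, -1.13 (SE 0.13) for Clec4f, the lectin of Kupffer cells, and -0.71 (SE 0.11) for Cd5l, a secreted macrophage protein. The call of Cd5l was close to the threshold of 0.7 and was lost without NZO mouse 009 or 011 or B6 mouse 011 or 015. With a fixed slide term or the mouse number as a block 0 of the 8 markers were called lower, and with the methods' test 2 were.

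The summed signal of the 8 macrophage markers, relative to the 75th percentile of the array, was 143, 141, 118 and 124 in NZO mice and 225, 195, 271 and 180 in B6 mice. The strains did not overlap, the ratio of the means was 0.603, and Cd5l was the brightest gene. No marker of this list was at background in both strains. Its part in the lower Ifi204, Mnda, Mndal and Ifi203 signals was not tested.

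Of 8 lymphocyte and NK cell markers 7 were tested, and Cd79b of B cells was called, lower in NZO (-0.73, SE 0.16). The summed signal of this list had a ratio of 1.08 between NZO and B6, Cd3e was the brightest gene, and Ncr1 was at background on all arrays. Of 7 monocyte, neutrophil and dendritic cell markers on the array, Itgax was called, lower in NZO (-2.04, SE 0.53), but with 2 of 4 NZO arrays well above background it passed the filter through B6 alone, and the ratio of the summed signals was 0.882. This sum was mostly Siglech (94.5% of it in NZO), represented by its brightest probe (-0.22), and 2 further Siglech probes gave 0.23 and -1.87. The call of Cd79b was lost without NZO mouse 011 or B6 mouse 011 or 009, and that of Itgax without any B6 mouse or NZO mouse 003 or 009. Of 5 hepatocyte markers, limma called 0 in either direction, 0 had an unadjusted p below 0.05, the methods' test called 0 (with 1 unadjusted p below 0.05), and the ratio was 1.13 with Alb as the brightest gene. Alb and Ttr were higher in every NZO mouse than in every B6 mouse. The labelled tissue, liver, was thus visible in all 8 arrays, with a summed hepatocyte signal between 3002 and 3917.

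The probes whose pattern was most like that of the Ifi202b probe A_55_P2032167, the one with the higher mean over all 8 arrays, were found by the root mean square difference of centred log2 values over the 8 arrays, among 27622 probes. Among the 5 most alike were Syt10 (0.47), Nuggc (0.55), Hao2 (0.56) and Cyp3a44 (0.74), which code for a synaptotagmin, a nuclear GTPase, a hydroxyacid oxidase and a cytochrome P450. The other Ifi202b probe came 8th with 0.86. These 4 genes lie on other chromosomes (15, 14, 3 and 5). For Ifi202b, Nuggc, Hao2 and Cyp3a44 no B6 array was well above background, and for Syt10 2 of 4 were, so the B6 part of this likeness rests on background values.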

How the data were processed

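Liver RNA of 4 NZO and 4 B6 mice was measured. The authors deposited scanner output with intensity values (Agilent Feature Extraction, 11.0.1.1 in the file headers, 9.1 in the submitters' processing notes) and a table equal to the raw median intensity (tolerance 0.01). The processed signal, background-subtracted by that software and not scaled between arrays, was taken without control and outlier spots (96 to 137 per array), as log2 minus the 75th percentile. A probe was tested when, in NZO or in B6, all of its spots on each of the 4 arrays exceeded background clearly. Limma 3.58.1 (R 4.3.3) compared the strains over all tested probes and was tested on simulated data. Python 3.11.15, pandas 2.3.3 and matplotlib 3.10.9 were used.

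Named were all member probes, called neighbours within 1 Mb, at most the 6 largest calls of each list and direction with Hsd11b1, called markers, and the 5 probes most like Ifi202b, of which 1 is not reported here. A few neighbours and list genes that were not called (Crp, Gm16340, BC094916, Pycard, Casp1, Casp4, Id1 and Cdkn1a) were added after their values were seen. The members and lists were chosen with earlier results of these data known. Beyond separate numbers, nothing says how the mice of a strain relate to each other (litter, cage), so p-values measure the spread between these arrays. The alternatives were normexp (offset 50), quantile normalization, the deposited table, no filter, slide as a random or fixed term, scan day, mouse number as a block, the Welch test of the methods and leaving out each mouse.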

Additional observations from a re-analysis of the deposited data

Results flagged for a closer look

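Of 104 groups of 4 arrays examined with Dixon's test, 4 held a mouse far from the other 3, and chance flags about 1 in 20. Il1b was -3.31 in NZO mouse 011 and between -2.73 and -2.71 in the other NZO mice. Dhx58, an interferon-induced gene outside the 6 named, was 1.48 in NZO mouse 007 and between 1.79 and 1.81 in the others. At Pydc3, which was not well above background in NZO at these probes, A_55_P2036627 gave -4.96 in NZO mouse 003 and -6.40 to -6.24 in the others, and A_66_P128761 gave -5.48 in NZO mouse 009 and -6.27 to -6.15 in the others.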

How the results depend on the processing

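The sign of the difference stayed the same for the member probes, the called neighbours, the called genes of the 4 lists and Hsd11b1 under the alternatives run for them, which for Aim2 was only the absence of a filter. Of 171 comparisons of member probe differences with an alternative 149 moved by less than the spread between mice and 22 moved by more, and of 697 comparisons of those other probes 596 kept their side of the threshold and 101 lost the call. Of all probes, 1197 were called higher and 1459 lower. Normexp gave 618 and 577, the deposited values gave 575 higher, a fixed slide term 498 higher and the Welch test 890 lower. On the deposited table the median of all probes shifted to -0.15, and 28.8% of its calls were higher in NZO compared with 45.1% (51.7% with normexp, where higher calls outnumbered lower ones, and 33.5% with a fixed slide term). Over probes well above background on all 8 arrays, a restriction chosen after seeing the data, 943 probes, 15 neighbours and 0 interferon-induced genes were called lower. The 8 higher interferon-induced genes became 5 on the deposited values, 3 with a fixed slide term and 5 with the Welch test, and the 1 lower gene became 2 on the deposited values, with a random or fixed slide term and with the scan day. The number of genes called in the sensing, signalling and partner lists was 2 and was 1 with normexp (where neither Il1b nor Irf8 was called), quantile normalization, no filter or the Welch test, 4 on the deposited values and 0 with a fixed slide term. The neighbouring probes went from 4 to 2 higher and from 25 to 18 lower with a fixed slide term, and from 25 to 11 lower with normexp. The 3 lower macrophage markers became 5 on the deposited values and 0 with a fixed slide term. The cause was not tested. Leaving out 1 mouse gave 1054 to 1218 probes higher and 1220 to 1464 lower, 7 to 10 and 1 to 2 interferon-induced genes, 0 to 3 calls of the other lists, 4 to 4 and 24 to 25 neighbours, and 2 to 3 macrophage markers.

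The mouse numbers 009 and 011 occur in both strains, but the deviations of same-numbered mice correlated at -0.26 and -0.004, so the numbers were not taken as pairs. With the number as a replicate block, which rests on these 2 numbers, 72 probes were higher and 134 lower, 1 and 0 interferon-induced genes, 0 genes of the other lists, 0 and 5 neighbours and 0 macrophage markers were called. Signal over background limits Aim2 and every probe at which a strain was not well above background.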
